A study of Mus musculus with 6 samples.

Results

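The genes that write and erase N6-methyladenosine (m6A) were examined for m6A on their own transcripts, in brain tissue of mice that lack one of the erasers. The genes were the erasers Fto and Alkbh5 and the writers Mettl3, Mettl14 and Wtap. A listed m6A region was counted for a gene when its midpoint fell in a fixed window of the mm9 genome around that gene, and 15 of the 29950 listed regions did. Of these, 7 lay in the Alkbh5 window, 3 each in those of Mettl14 and Wtap, and 1 each in those of Fto and Mettl3, so that none of the 5 windows was empty. Chromosomes 1 to 19 and X were also divided into tiles as long as each window. A region was held by 52.9% of tiles of the Fto length, and by 5.67% to 10.9% for the other lengths. Those tiles include sequence between genes. Regions that touched end to end were merged, because the list divides longer enrichment into equal parts, and the 15 regions formed 11 separate stretches covering 2125 bp. With only stretches of at least 200 bp, the windows of Fto and Mettl3 held none. Of the 19380 stretches on chromosomes 1 to 19 and X, 50.5% were at least that long.

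The mice behind every library were adult, of C57BL/6 background, and carried a global Fto knockout. RNA from midbrain and striatum, not kept apart, was depleted of ribosomal RNA. In 3 MeRIP libraries, m6A-bearing fragments were pulled down with an m6A antibody in 2 rounds, and 3 input libraries had no immunoprecipitation. The labels do not say whether the numbered libraries came from separate animals, nor which part of Fto was deleted. One list of positions serves all 6 libraries, with no height, count, strand, score or value per library. No replicate error can therefore be attached to any value below, no test between groups was possible, and the read depth is unknown. The labelled tissue could not be checked against marker genes, since positions carry no expression level. Animals with intact Fto were not analysed here, so no value below describes an effect of the knockout.

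m6A is placed on nascent RNA by a nuclear complex. Within it, METTL3 is the catalytic subunit, METTL14 holds the RNA and stabilises METTL3, and WTAP is a regulatory subunit that brings the pair to nuclear speckles. FTO and ALKBH5 are dioxygenases of the AlkB family that remove the methyl group. FTO also acts on the related mark m6Am beside the cap, and variants in its human gene are associated with body mass. In mammalian mRNA, m6A is known to be concentrated around stop codons, in 3' untranslated regions and in long internal exons. An m6A region on one of these transcripts is thus a mark on the messenger of its own machinery.

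Positions are mm9, 1-based, and are read from 5' to 3' along each gene. Fto and Alkbh5 are transcribed from the plus strand, and Mettl3, Mettl14 and Wtap from the minus strand, where the 3' end has the lower coordinate. The windows reach past the genes by an amount that cannot be read from the list. Place is therefore given along the window, and no stretch was assigned to an exon, intron or untranslated region, because no mm9 annotation was used here. The list has no strand, so a stretch could also belong to a transcript of the other strand.

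The window of Fto, the eraser deleted in these mice, held a single stretch close to its 3' limit. This window spans chr8:93835000-94194000, or 359 kb, and Fto is known for its very long introns. The stretch lay at chr8:94190576-94190725 and was 150 bp long, listed as 1 region. Its midpoint was 99.1% of the way along the window, and it ended 3275 bp before the 3' limit. The preceding 355575 bp of the window had no listed region. The empty interval went on beyond the 5' limit, so that 533 kb separated the Fto stretch from the one before it. Of the 19360 gaps between neighbouring stretches on chromosomes 1 to 19 and X, 5.98% were at least that long. The next coding gene on that side is Rpgrip1l, a ciliary gene that is transcribed away from Fto, and the long noncoding RNA gene 4831440D22Rik lies within Fto. On the 3' side, toward the homeobox gene Irx3, the next stretch was 133 kb away. Only 5.08% of the 19380 stretches on these chromosomes were as far or farther from any other stretch. The list thus holds an enriched stretch near the 3' limit of the Fto window in tissue labelled as knockout. Since the labels do not name the deleted part and the list has no strand or level, this stretch does not check the label.

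Alkbh5, the eraser that was not deleted, carried the most m6A stretches of the 5 genes when all lengths were counted, in an early and a late group. With only stretches of at least 200 bp, Alkbh5 and Mettl14 had 2 each. Its window at chr11:60349000-60374000 is 25 kb long and held 5 stretches covering 950 bp. The first lay at chr11:60349776-60349950 (175 bp), only 775 bp inside the 5' limit, and is the member closest to any window limit. Next came 275 bp of enrichment at chr11:60351726-60352000, listed as 2 regions of 138 and 137 bp. The third, at chr11:60352326-60352500, was again 175 bp long. These 3 stretches lay between 3.45% and 13.7% of the way along the window, with gaps of 1775 and 325 bp between them.

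An interval of 14775 bp without a listed region followed in Alkbh5. The late group consisted of the shortest Alkbh5 stretch, 100 bp at chr11:60367276-60367375, and one of 225 bp at chr11:60367751-60367975. These lay at 73.3% and 75.5% of the window, 375 bp apart. The early group covered the larger part of the marked bases, and Alkbh5 was the only one of the 5 genes with a stretch in the first 20% of its window. The first stretch may lie before the gene rather than in it, which could not be told from the window alone. No listed region followed for 92.2 kb on the 5' side, toward the myosin gene Myo15, or for 177 kb on the 3' side, toward the cell polarity gene Llgl1.

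**Figure D1:**
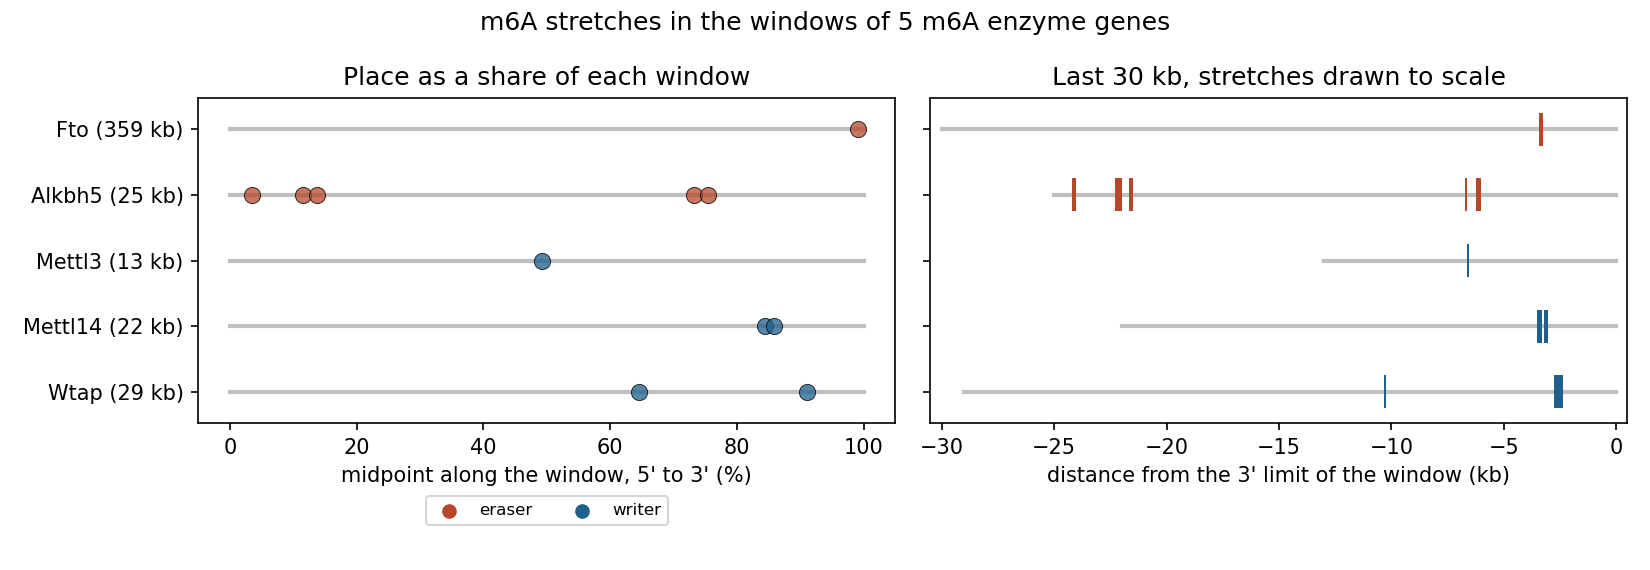
Place of the 11 m6A stretches (listed regions merged where they touched) along the windows of the 5 genes. The left panel gives each stretch's midpoint as a percent of its window from 5' to 3', and the right panel gives the distance in kb from the 3' limit over the last 30 kb, with bar widths to scale; grey lines are the windows. Fto has 1 stretch at 99.1%, Alkbh5 has an early and a late group, the Mettl3 stretch is at 49.2%, and Mettl14 and Wtap have stretches in the last 20%.

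Mettl3, the catalytic writer, had the fewest covered bases of the 5 genes. Its window at chr14:52913000-52926000 (13 kb) held 1 stretch at chr14:52919551-52919650. That stretch was 100 bp long, the shortest length in the list. It lay at 49.2% of the window, 6550 bp before the 3' limit. In the RefSeq gene table, the 3' part of Mettl3 overlaps Tox4, which is transcribed toward it from the opposite strand and encodes an HMG-box protein. How far this overlap reaches was not placed in mm9, so whether the Mettl3 stretch lies in it could not be told. Mettl3 also had the nearest stretch outside any of the 5 windows, 5500 bp beyond its 5' limit. The coding gene on that side is Sall2, a zinc finger transcription factor gene on the same strand.

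Mettl14, the partner of Mettl3, had a compact pair of stretches toward the 3' limit of its window. In its window at chr3:123069000-123091000 (22 kb), the first in the direction of transcription was chr3:123072301-123072525, 225 bp long and listed as regions of 113 and 112 bp. The second was chr3:123072026-123072225, with a length of 200 bp. Only 75 bp separated them, the smallest gap among the members, and 87.5% of all stretches were as far or farther from their nearest neighbour. They lay at 84.5% and 85.8% of the window, and together covered 425 bp. Outside this pair the region was empty, with no other listed region for 302 kb on the 5' side and 255 kb on the 3' side. The 3' side holds Sec24d, a gene for a coat protein of secretory vesicles, which is transcribed toward Mettl14. With no strand in the list, RNA of the 2 strands cannot be told apart here.

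Wtap, the regulatory writer subunit, had the longest stretch of the members. Its window at chr17:13158000-13187000 (29 kb) held a stretch of 100 bp at chr17:13168226-13168325, 64.6% of the way along. A second stretch of 400 bp at chr17:13160376-13160775 lay at 91.1%, 7450 bp further toward the 3' end and 2375 bp before the window's 3' limit. It was listed as 2 regions of 200 bp each, the greatest length of a listed region. Of all 19380 stretches, 11.2% were at least as long. The neighbouring genes are Sod2, the mitochondrial superoxide dismutase, on the 5' side and Acat2, a thiolase gene, on the 3' side. The nearest stretches outside the window lay 45.6 kb and 123 kb beyond its 5' and 3' limits.

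The members' stretches had a median length of 175 bp and ranged from 100 bp to the 400 bp of Wtap, while the median of all 19380 stretches was 200 bp. The 6 eraser stretches had a median of 175 bp and the 5 writer stretches one of 200 bp. Among the members, 4 of 11 stretches exceeded 200 bp, and over all stretches 40.5% did. The shortest length in the list, 100 bp, was found for 3 members, 1 each in Alkbh5, Mettl3 and Wtap, and for 11.6% of all stretches. With 11 stretches from 5 genes, and stretches of 1 gene not independent of each other, these shares are a description and no difference from the list as a whole was tested.

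**Figure D2:**
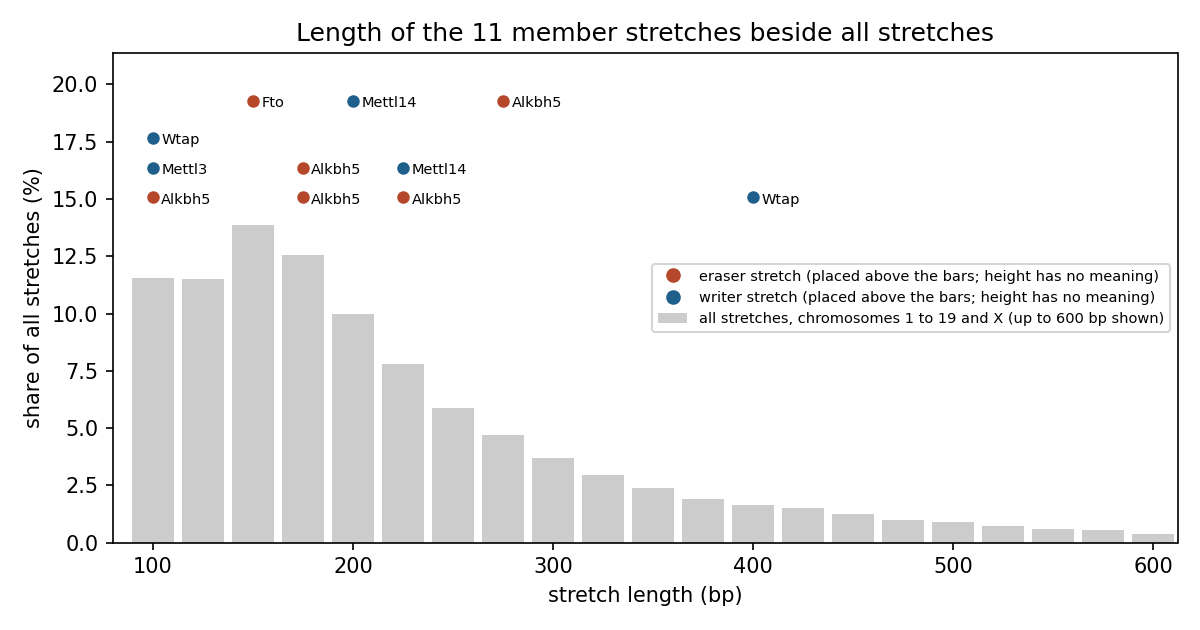
Length in bp of the 11 member stretches (dots, labelled by gene and coloured by role) above the share of all stretches on chromosomes 1 to 19 and X at each length (grey bars, percent, longest stretches not shown). The dots run from 100 bp, shared by Alkbh5, Mettl3 and Wtap, to 400 bp in Wtap, and their height above the bars has no meaning.

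Place along the window differed between the genes. In the last 20% of the window lay 4 of the 11 stretches (36.4%), from 3 genes: the stretch of Fto, both of Mettl14 and the longer one of Wtap. They held 975 of the 2125 covered bases. Of the writers' 5 stretches, 3 were in the last 20% and none in the first. Of the erasers' 6 stretches, 1 was in the last 20% and 3 in the first, all 3 of these in Alkbh5. The last 20% of the long Fto window is many times longer than those of the other windows, so these shares compare unequal lengths. The Mettl14 stretches, 75 bp apart, count as 1 when regions up to 100 bp apart are merged. No share over other genes was computed here, so these counts describe the 5 genes only. In base pairs, the last stretch of Fto, Mettl14 and Wtap ended between 2375 and 3275 bp before the 3' limit, and those of Alkbh5 and Mettl3 at 6025 and 6550 bp.

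The spacing of the stretches differed between the genes. Joining stretches up to 5 kb apart gave 7 clusters in the 5 windows. Fto and Mettl3 had 1 cluster of 1 stretch each, Wtap had 2 clusters of 1 stretch, Mettl14 had 1 cluster of 2, and Alkbh5 had clusters of 3 and of 2. Over chromosomes 1 to 19 and X, 59.8% of 10931 clusters held 1 stretch, 21.4% held 2 and 10.1% held 3. The distance to the nearest other stretch had a median of 675 bp over all stretches. Both stretches of Mettl14 and 4 of the 5 of Alkbh5 were closer to a neighbour than that. The Fto stretch, with 133 kb, those of Wtap, with 7450 bp, and that of Mettl3, with 11850 bp, were farther.

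**Figure D3:**
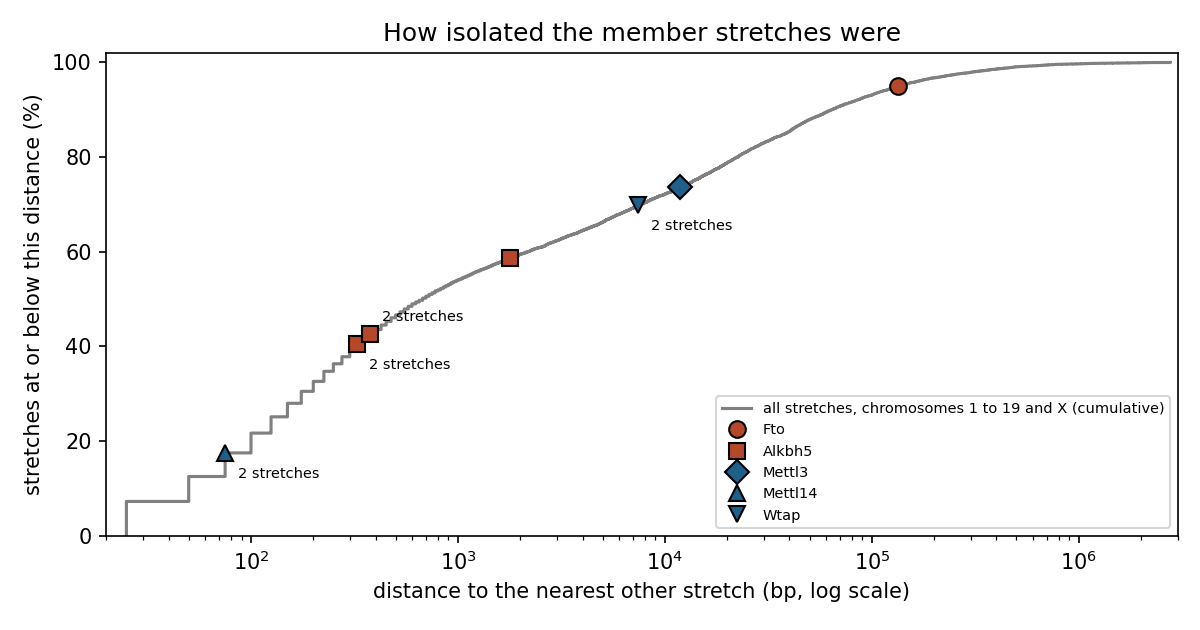
Distance in bp (log axis) from each member stretch to the nearest other stretch in the list (symbols by gene), drawn on the cumulative percent of all stretches on chromosomes 1 to 19 and X (grey line). The Mettl14 pair sits lowest, at 75 bp, and the Fto stretch highest, at 133350 bp, with Alkbh5, Wtap and Mettl3 between them.

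As a background for the counts, chromosomes 1 to 19 and X were divided into tiles as long as each window. At least 1 listed region was held by 52.9% of tiles as long as the Fto window. For the shorter windows the share was 9.73% of tiles as long as that of Alkbh5, 5.67% for Mettl3, 8.77% for Mettl14 and 10.9% for Wtap. These shares depend on which tiles are counted. Tiles with no region in them or within 100 kb were left out as an alternative. This drops only empty tiles, so the shares could only rise. They were then 83.1% for the length of Fto, 23.0% for Alkbh5, 13.8% for Mettl3, 20.9% for Mettl14 and 25.6% for Wtap. These tiles also cover sequence between genes, so the shares do not set the 5 genes apart from other genes, and no such difference was tested. Limited to occupied tiles, the median was 3 stretches for the length of Fto and 1 for each of the other lengths.

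The count of each gene was also set beside occupied tiles of its window's length. These tiles lie on a fixed grid and are not centred on genes. A long tile can hold several genes and a short tile only part of a gene. The shares below therefore do not rank the 5 genes by density. The single stretch of Fto was matched by 21.2% of occupied tiles of its length, and all others held more. The 5 stretches of Alkbh5 were reached by 6.01% of occupied tiles of its length, or 0.583% of all such tiles. The 2 stretches of Mettl14 were reached by 45.3% of occupied tiles (3.97% of all) and those of Wtap by 48.1% (5.24% of all). The single stretch of Mettl3 was matched by 59.3% of occupied tiles, with more in the rest, and 5.64% of all tiles held at least 1 stretch midpoint. As covered bases per kb of window, Alkbh5 had 38.0 bp, Mettl14 19.3 bp, Wtap 17.2 bp, Mettl3 7.69 bp and Fto 0.418 bp. The same measure over the span of regions on the host chromosome was 2.04 bp for chromosome 8, which carries Fto, and 1.26 to 3.11 bp for the other 4. The value of Fto was below that of its chromosome, and each of the other genes was above. For those 4 this was fixed once a window held any region. Even a region of the shortest listed length, 100 bp, gives such short windows a higher value. The chromosome values also include sequence between genes. Density per kb counts introns, which mature mRNA lacks, and Fto has by far the longest window.

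**Figure D4:**
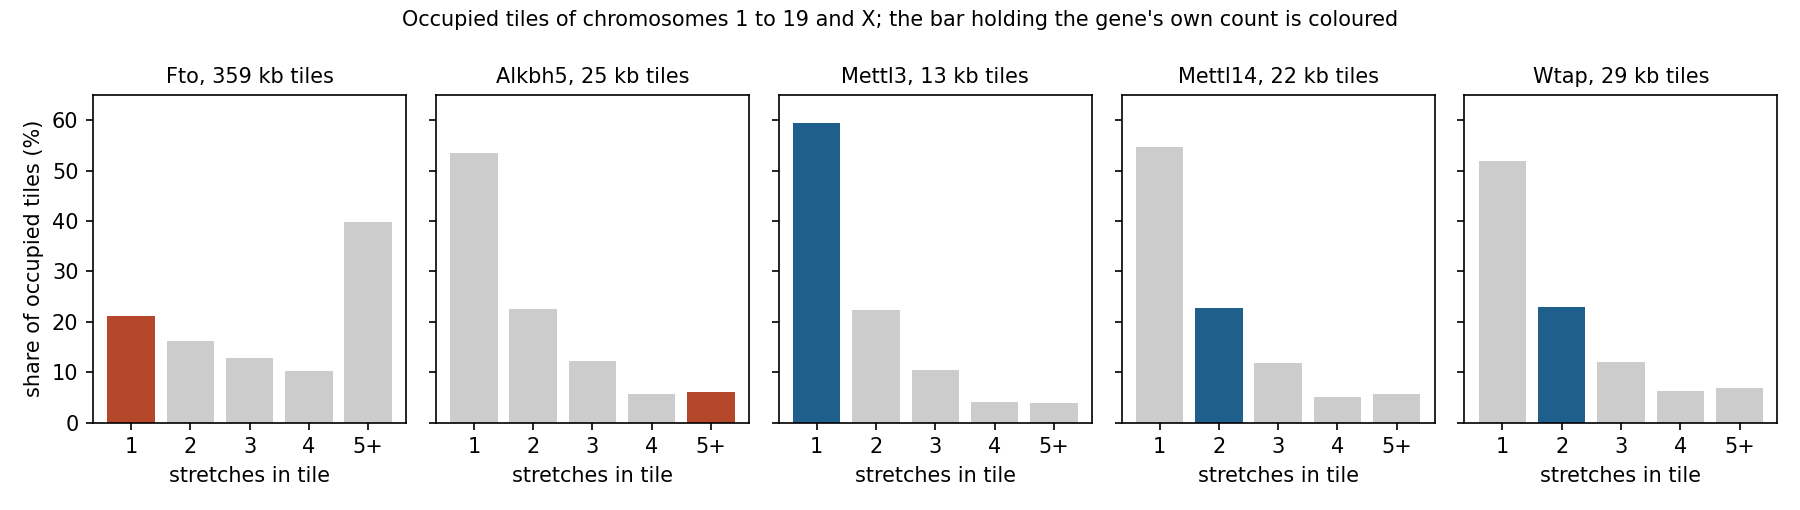
Share of occupied tiles (percent, y axis) that hold 1 to 4, or 5 or more, m6A stretches (x axis), for tiles as long as each gene's window on chromosomes 1 to 19 and X. The coloured bar is the one that holds the gene's own count: 1 for Fto and Mettl3, 2 for Mettl14 and Wtap, and 5 for Alkbh5, whose bar holds 6.01% of occupied tiles.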

How the data were processed

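The authors deposited 1 list of m6A regions, with a chromosome, a start and an end in 3 columns and no header line. The unit of the deposited values is the genome position in bp, with regions of 100 to 200 bp. The submitters' processing notes name SAMtools 0.1.18, BWA 0.6.2-r126 and the build mm9. How regions were called from the 3 MeRIP and 3 input libraries, and at which threshold, is not given in the sources at hand. The gene windows are fixed mm9 intervals. The members, windows and measures were chosen with earlier results of these data known. All 5 genes are named, each with every stretch. Regions were assigned by midpoint and merged where they touched (gap of 0 bp). Stretches up to 5 kb apart formed clusters. Tiles began at multiples of the window length, from the first to the last region of each chromosome. Strand came from a RefSeq promoter table of GRCm38.p6 for 4 of the 5 genes, and for Mettl14 from general knowledge. Neighbouring genes came from the RefSeq gene table of that build, and no coordinate was compared between builds. Other m6A genes were not placed, and no sequence of a stretch is given, because no mm9 annotation or genome was used here. Alternatives were other membership rules, window limits, merging distances, minimum lengths and tile positions. Merging and tiling were tested on simulated data. Scripts ran in Python 3.11.15 (matplotlib 3.10.9, numpy 2.4.6, scipy 1.17.1, pandas 2.3.3).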

Additional observations from a re-analysis of the deposited data

How the results depend on the processing

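Each of the 5 genes kept at least 1 listed region when any overlap or full containment replaced the midpoint and when windows were extended by 5 kb or shortened by 1 kb. Extension added no region, and shortening removed 1, the first of Alkbh5, leaving 14 regions in 10 stretches. A stricter calling threshold could not be applied because the list has no score, and how stretch length relates to that threshold was not tested. With only stretches of at least 200 bp, the total fell to 5 stretches: Alkbh5 had 2, Mettl14 kept 2, Wtap had 1, and Fto and Mettl3 had 0. Leaving out stretches of 100 bp, an alternative chosen after seeing the data, left Mettl3 with 0 and Wtap with 1. Merging regions up to 100 bp apart left Mettl14 with 1 stretch, and merging up to 1 kb left Mettl14 with 1 and Alkbh5 with 3. Keeping only tiles that held a region or had one within 100 kb drops empty tiles alone, so the share holding a region could only rise. It was then 83.1% for the length of Fto, 23.0% for Alkbh5, 13.8% for Mettl3, 20.9% for Mettl14 and 25.6% for Wtap. In all, 97 of 112 alternative values stayed within 1.5 times the reported count or length, or within the 95% binomial interval of a share, and 15 did not. All 15 came from minimum lengths, merging distances or tiles with a region within 100 kb. Any overlap, full containment and extension left every count unchanged, and each gene was counted again in the total. The tally is therefore no measure of robustness. No paired analysis was possible because all libraries share 1 list without values of their own, which also prevented leaving any of them out. Depth, transcript level and the calling threshold cannot be read from the list, and they limit what an unmarked part of a gene means.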
